A study of Mus musculus with 24 samples.

Results

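The genes described here are the joining (J) segments of the immunoglobulin and T cell receptor loci, measured in mouse hearts after an ischemic stroke of the brain. They were taken by symbol, as every gene of the table named Ighj, Igkj, Iglj, Traj, Trbj, Trdj or Trgj with a number. This gave 83 of 24011 genes: 57 Traj, 14 Trbj, 4 Trgj, 3 Ighj, 3 Igkj and 2 Trdj segments, and no Iglj segment. The group was chosen by measured values of these arrays: Igkj5, Trbj1-6 and Trdj1 had some of the lowest differences of the series between MCAO and sham at 24 h, and the difference of Trdj1 was not the same at both times. The 24 h contrast and the difference between the times are therefore given as descriptions: segments past the fit's threshold are counted beside the share of all genes, with no p-value, and the counts support nothing.

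The hearts came from C57BL/6J mice that were 8 weeks old. The middle cerebral artery was occluded (MCAO, a model of ischemic stroke), or the mice had a sham operation, and the hearts were taken 24 h or 72 h later. Each of the 4 groups (sham 24 h, MCAO 24 h, sham 72 h, MCAO 72 h) had 6 Affymetrix arrays, hybridised with biotin-labelled cRNA from total RNA. Whether the 6 arrays of a group stem from 6 mice is not stated, so the spread behind each p-value is that of arrays and may be technical. The number of arrays limits the precision. Cardiomyocyte markers were at the top of the scale in every group, with a mean over the 12 markers of 12.57 ± 0.06 (log2, SD, n = 6) in sham 24 h and 12.48 ± 0.11 in MCAO 24 h. MCAO 24 h replicates 5 and 6 and sham 24 h replicate 5 stood apart from the other arrays of their groups over all genes. In these MCAO arrays 21.4% and 20.7% of all genes lay more than 0.5 from their sham mean, against 5.64% to 12.4% in the group's other arrays. In this sham array it was 7.61%, against 0.39% to 2.87% in the others. The largest 24 h differences of the segments are also given without these 3 arrays.

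Developing B and T cells build their antigen receptor genes by V(D)J recombination, in which the recombinase made from Rag1 and Rag2 joins a variable, sometimes a diversity, and a J segment. A rearranged J segment is transcribed with the variable segment before it and spliced to the constant region that follows, so an active lymphocyte carries the J sequence within its receptor mRNA. Unrearranged J segments can also be copied into germline transcripts in lymphoid precursors, and a J segment is so short that few probes can be placed on it. Heart tissue holds few lymphocytes, most of them in blood and connective tissue. In whole-tissue RNA, fewer cells of a type and less RNA per cell cannot be told apart.

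Most J segments gave array values in the range of genes that the heart is not known to use. Values are the deposited log2 array values, and a value of 1 probe set cannot be set against that of another as an abundance. For reference, 95% of the 1365 olfactory and vomeronasal receptor genes, which are silent in most tissues outside the nose, had a mean value at or under 3.96, and 64 of the 83 J segments (77.1%) lay at or under that value, as did 43.7% of all genes. The median segment had a mean of 3.49 over the 24 arrays, against 4.15 for the median gene. The 17 segments above the median gene were spread over 5 loci: 7 Traj, 4 Trbj, 3 Ighj, 2 Igkj and 1 Trdj. The 72 h arrays have no part in the 24 h contrast, but they enter the difference between the times, which also led to the choice. In them 9 segments had a mean above 5: Trbj1-6, Igkj5, Trbj2-1, Igkj1, Ighj1, Trbj2-5, Trdj1, Ighj3 and Trbj1-2. The lowest of these, Trbj1-2, had a mean of 5.33 there, and the next segment below the limit, Traj8, had 4.95.

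**Figure D1:**
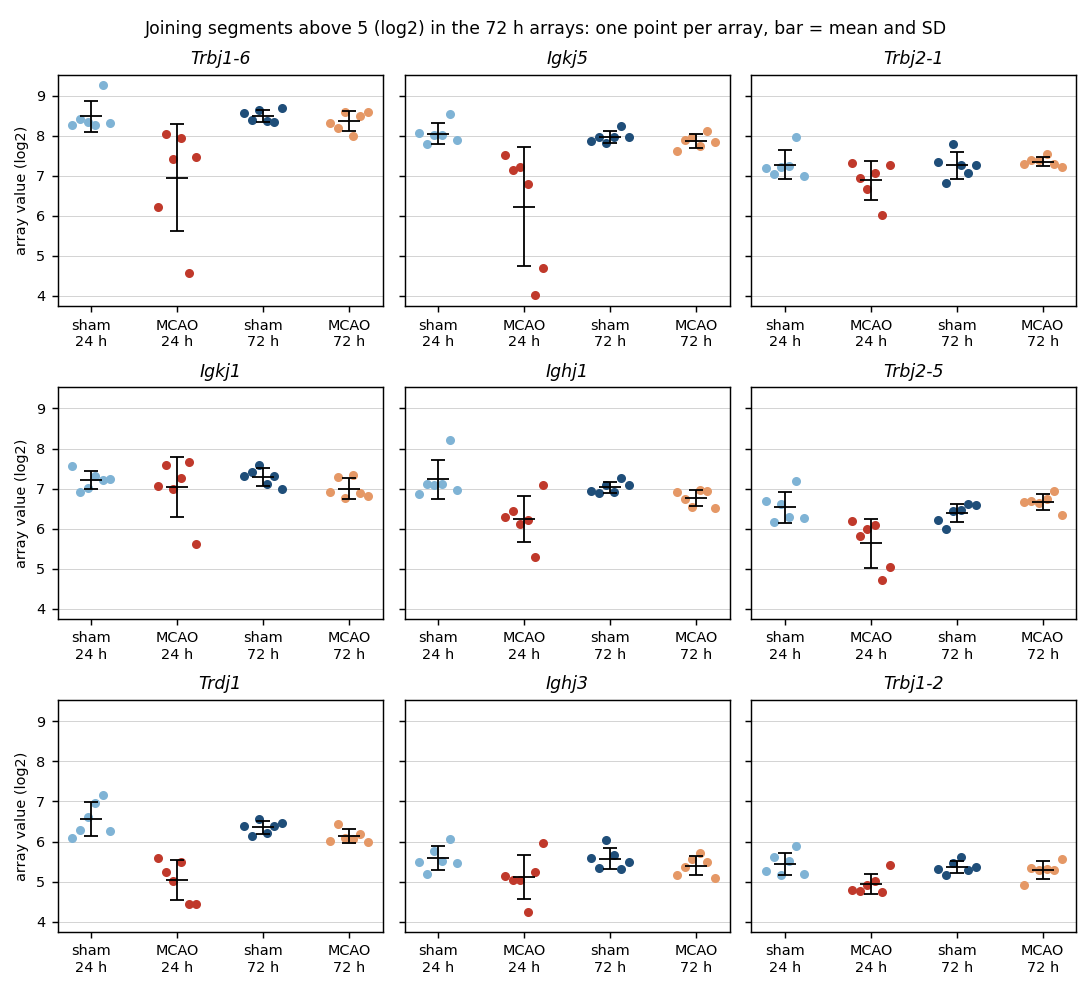
Log2 array value (vertical axis) of the 9 J segments whose mean was above 5 in the 72 h arrays, with 1 point per array in each of the 4 groups (6 arrays each) and bars for mean and SD. In MCAO 24 h the values of Igkj5 and Trbj1-6 spread downward. Those of Trdj1 lie lower with a similar spread (SD 0.50, against 0.43 in sham 24 h). For these segments the means of the other 3 groups lie closer to each other than to that of MCAO 24 h. Sham 24 h replicate 5 lies far above its group for Trbj1-6, Ighj1 and Trbj2-1.

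Igkj5, the last J segment before the kappa constant region, had array values of 7.78 to 8.53 in sham 24 h (median 8.01). In MCAO 24 h the 6 arrays read 7.51, 7.13, 7.23, 6.80, 4.01 and 4.69, so that none reached the lowest sham array and replicates 5 and 6 lay far below the other 4. The group means were 8.05 ± 0.26 and 6.23 ± 1.49 (SD, n = 6), a difference of -1.82 (SE 0.41) or 3.53-fold lower. This SE rests on a common estimate of spread for all groups, which includes the smaller spread of the 72 h groups. Fitted on the arrays of 24 h alone, the SE was 0.54 and Igkj5 did not pass the threshold. Without MCAO 24 h replicates 5 and 6 the difference was -0.88 (SE 0.13), and without sham 24 h replicate 5 as well it was -0.78 (SE 0.12). Igkj1, the first segment of the same row, read 7.06, 7.59, 6.99, 7.27, 7.66 and 5.61 in MCAO 24 h, against 6.92 to 7.56 in sham 24 h (median 7.22), and its groups overlapped. Its difference was -0.18 (SE 0.23), or 0.02 (SE 0.14) without MCAO 24 h replicates 5 and 6. In replicate 5, where Igkj5 had its lowest value of all, Igkj1 had its highest, so the 2 kappa segments did not move together array by array. Igkj3 stayed low in all groups, with means of 3.67 to 3.78, and its 24 h difference was -0.02 (SE 0.11).

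Trbj1-6, a J segment of the first T cell receptor beta cluster, had values of 8.27 to 9.26 in sham 24 h (median 8.33). In MCAO 24 h the arrays read 6.23, 8.05, 7.43, 7.94, 4.57 and 7.47. All 6 lay below the sham arrays, with replicates 1 and 5 lowest, while replicate 6, which was very low for Igkj5, was close to the group's median. The means were 8.48 ± 0.39 and 6.95 ± 1.33 (SD, n = 6), a difference of -1.53 (SE 0.38) or 2.89-fold lower. Fitted on the arrays of 24 h alone, the SE was 0.49 and Trbj1-6 did not pass the threshold. Without MCAO 24 h replicates 5 and 6 the difference was -1.07 (SE 0.25), and without sham 24 h replicate 5 as well -0.91 (SE 0.24). Trbj2-5, of the second beta cluster, had 6.16 to 7.19 in sham 24 h (median 6.45) and 6.20, 5.82, 5.98, 6.08, 4.71 and 5.05 in MCAO 24 h. Its groups overlapped by 1 MCAO array, and the difference was -0.89 (SE 0.21), or -0.51 (SE 0.16) without MCAO 24 h replicates 5 and 6 and -0.38 (SE 0.13) without sham 24 h replicate 5 as well. Trbj1-2 differed by -0.49 (SE 0.13), Trbj2-7 by -0.40 (SE 0.11) and Trbj2-1 by -0.40 (SE 0.19). For Trbj2-1 the difference was -0.28 (SE 0.17) without MCAO 24 h replicates 5 and 6, and -0.14 (SE 0.14) without sham 24 h replicate 5 as well. At the low end, Trbj1-3 had means of 2.90 in sham 24 h and 3.08 in MCAO 24 h, a difference of 0.18 (SE 0.05).

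Trdj1, a J segment of the T cell receptor delta locus, which lies within the alpha locus, had 6.08 to 7.17 in sham 24 h (median 6.45). In MCAO 24 h it read 5.58, 5.25, 5.02, 5.48, 4.43 and 4.45. No MCAO array reached the sham range, replicates 5 and 6 were again the lowest, and the difference was -1.53 (SE 0.19), or -1.23 (SE 0.17) without those arrays. Leaving out sham 24 h replicate 5 as well gave -1.11 (SE 0.15). Trdj2 had means of 3.11 to 3.20 in all groups. Of the heavy chain segments, Ighj1 had 6.87 to 8.22 in sham 24 h (median 7.10) and 6.30, 6.43, 6.12, 6.23, 5.29 and 7.08 in MCAO 24 h, a difference of -0.99 (SE 0.22). Its MCAO replicate 6 lay within the sham range, and without these 3 arrays the difference was -0.76 (SE 0.10). Ighj3 differed by -0.47 (SE 0.20), or -0.72 (SE 0.18) without MCAO 24 h replicates 5 and 6, and Ighj4 by -0.15 (SE 0.10).

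The 57 Traj segments, which serve the alpha chain, mostly had low array values, with 7 of them above the median gene. Their means over the 24 arrays ran from 2.96 for Traj4 to 4.97 for Traj8. At 24 h their differences ran from -0.32 for Traj55 to 0.37 for Traj8, with a median of 0.01. The highest were Traj8 (0.37, SE 0.19), Traj52 (0.28, SE 0.08), Traj7 (0.24, SE 0.08) and Traj46 (0.23, SE 0.11). Traj8 turned on single arrays: its difference was 0.57 (SE 0.15) without sham 24 h replicate 5, 0.10 (SE 0.18) without MCAO 24 h replicates 5 and 6, and 0.30 (SE 0.10) without all 3. Traj46 differed by 0.37 (SE 0.11) without MCAO 24 h replicates 5 and 6. Among the beta segments, Trbj1-5 differed by 0.23 (SE 0.11), or 0.40 (SE 0.10) without those 2 arrays. The 4 Trgj segments of the gamma chain had group means between 2.95 and 3.79, and 24 h differences from -0.20 for Trgj4 to 0.13 for Trgj2.

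Over all 83 segments, the fit across all genes (limma, Benjamini-Hochberg adjusted p under 0.05) placed 13 segments past its threshold at 24 h, or 15.7%, against 21.8% of all genes tested. Of these, 8 were lower (9.64%, against 10.8% of all genes): Igkj5, Trbj1-6, Trdj1, Ighj1, Trbj2-5, Trbj1-2, Trbj2-7 and Traj35. The other 5 were higher (6.02%, against 11.1%): Traj52, Traj7, Traj9, Trbj1-3 and Traj3. The median difference over the segments was -0.01, and over all genes 0.01. The MCAO and sham arrays did not overlap for Igkj5, Trbj1-6 and Trdj1, all lower (2.65% of all genes were apart in this direction), and for no segment in the other direction (2.88% of all genes). Fitted on the 12 arrays of 24 h alone, 4 segments were lower past the threshold (against 4.36% of all genes in that fit), namely Ighj1, Trdj1, Trbj1-2 and Trbj2-5. Igkj5 (SE 0.54) and Trbj1-6 (SE 0.49) were not called in that fit, which leaves out the smaller spread of the 72 h groups. Without MCAO 24 h replicates 5 and 6 there were 13 lower (against 12.8%). When the main axis of variation among those silent receptors was added to the model, none was lower past the threshold (against 0.65% of all genes), and Igkj5 differed by 0.69 (SE 0.41). That axis was taken over all 24 arrays with the group differences left in. The receptors' SD per array around the sham mean had a median of 0.24 in MCAO 24 h and 0.10 in sham 24 h. How far the axis overlaps the 24 h groups was not tested, so the loss of calls cannot be read as a correction.

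The 24 h differences are set beside the array value here as a description, since Igkj5, Trbj1-6 and Trdj1, which led to the choice, are among the segments with high values. The 9 segments above 5 in the 72 h arrays had negative differences at 24 h, with a median of -0.89, and 6 of them were past the threshold. Without MCAO 24 h replicates 5 and 6 the median was -0.72 and 8 of the 9 were negative, Igkj1 being the exception. Among the 8326 genes of the table above 5 in those arrays, 14.7% were called lower, and their median difference was -0.02. The other 74 segments had a median difference of 0.00, with 37 negative and 37 positive, 2 called lower and 5 called higher. Across the 83 segments, the mean value in the 72 h arrays and the 24 h difference had a Pearson r of -0.80 and a Spearman rho of -0.56, or -0.71 and -0.46 without MCAO 24 h replicates 5 and 6. These points share the 24 arrays and the same scaling and are not independent, and the values of different probes do not rank amounts of RNA. The same rho was -0.11 over all genes, -0.30 over 279 variable segments, -0.31 over the olfactory and vomeronasal receptors, -0.22 over 544 microRNAs and -0.02 over 98 small nucleolar RNAs. It was -0.64 over 14 constant region genes, -0.65 over 17 B cell markers and -0.25 over 17 T cell markers. The Pearson r was -0.75, -0.21 and -0.03 over these 3 lists. It was -0.56 over the variable segments, -0.47 over the receptors and -0.08 over all genes. At 72 h, with the level taken from the sham 24 h arrays, the segments' rho was -0.24.

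**Figure D2:**
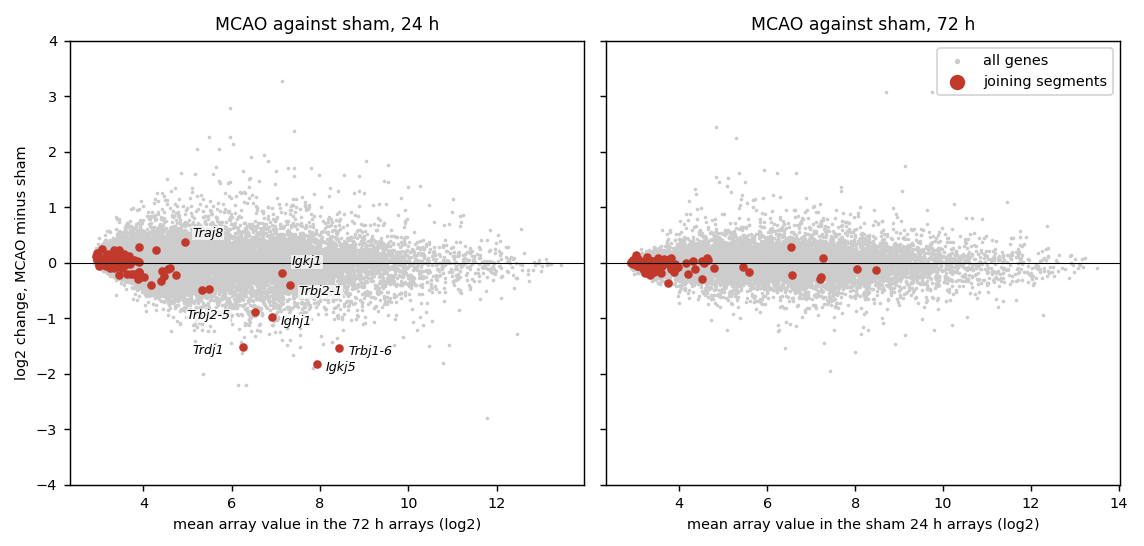
Log2 difference MCAO minus sham (vertical axis) at 24 h against the mean log2 array value in the 72 h arrays (left), and at 72 h against the mean value in the sham 24 h arrays (right), with all 24011 genes in grey and the 83 J segments in red. At 24 h the 9 segments above 5 all lie below 0, down to -1.82 for Igkj5, and at 72 h all segments lie between -0.36 and 0.28.

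No J segment passed the threshold at 72 h (limma, 0 of 83, against 2.35% of all genes). These arrays share none with the 24 h contrast. They do enter the difference between the times, which also had a part in the choice, so the 72 h values are not independent of it. At an unadjusted p under 0.05 there were 6 segments (7.23%), against 10.9% of all genes. The median difference was -0.02 over the segments and 0.00 over all genes. The segments that were lowest at 24 h had means near the sham means at 72 h. Igkj5 had 7.81 to 8.25 in sham 72 h (median 7.97) and 7.61 to 8.12 in MCAO 72 h (median 7.88), a difference of -0.11 (SE 0.41, limma adjusted p = 1.00). Trbj1-6 had 8.34 to 8.68 and 8.00 to 8.60, a difference of -0.13 (SE 0.38, limma adjusted p = 1.00). For Trdj1 the ranges were 6.13 to 6.57 and 5.98 to 6.45, with a difference of -0.23 (SE 0.19, limma adjusted p = 0.870). In each of these the MCAO and sham arrays overlapped. These tests used 1 estimate of spread for all 4 groups, which includes the wide spread of MCAO 24 h.

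The smallest adjusted p at 72 h belonged to Ighj4, a heavy chain segment that the 24 h contrast had not singled out. It had 4.44 to 4.67 in sham 72 h (median 4.55) and 4.12 to 4.38 in MCAO 72 h (median 4.30). All 6 MCAO arrays lay below all 6 sham arrays, with a difference of -0.29 (SE 0.10, limma adjusted p = 0.147). It was the only segment whose 72 h groups did not overlap with MCAO lower (1.77% of all genes), and no segment was apart with MCAO higher (1.77%). Traj37 had 3.57 to 3.93 in sham 72 h and 3.32 to 3.61 in MCAO 72 h, the largest 72 h difference of any segment (-0.36, SE 0.15, limma adjusted p = 0.327). Next came Igkj1 (-0.29, SE 0.23) and Ighj1 (-0.26, SE 0.22). On the positive side stood Trbj2-5 (0.28, SE 0.21), Traj31 (0.13, SE 0.05), Trbj1-5 (0.10, SE 0.11), Traj29 (0.09, SE 0.10) and Trbj2-1 (0.09, SE 0.19). Fitted on the 12 arrays of 72 h alone, with their smaller spread, 3 segments passed, all lower (against 5.87% of all genes in that fit): Traj37 (limma adjusted p = 0.00613), Ighj4 (0.0117) and Traj34 (0.0422). With limma's array weights over all 24 arrays these 3 were lower, as was Traj36 (limma adjusted p = 0.0369), and Traj31 was higher (0.0439), against 7.93% of all genes called in that fit. Traj37 and Traj34 lay in the range of the silent receptor genes, with means of 3.64 and 3.26 in the 72 h arrays.

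The sham groups differed little between the times. No segment passed the threshold for sham 72 h against sham 24 h (limma, 0 of 83, against 0.0208% of all genes), and 1 had an unadjusted p under 0.05 (against 3.69% of all genes). This was Trgj4, with 3.48 ± 0.23 in sham 24 h and 3.79 ± 0.18 in sham 72 h (SD, n = 6). The MCAO effect at 72 h minus that at 24 h contains the 24 h contrast and itself had a part in the choice. For it, 2 segments were past the threshold (limma, 2.41%, against 1.79% of all genes). They were Trdj1, with 1.30 (SE 0.27), and Trbj2-5, with 1.17 (SE 0.30). The differences of Igkj5 (1.71, SE 0.58) and Trbj1-6 (1.40, SE 0.54) were larger but had wider errors.

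**Figure D3:**
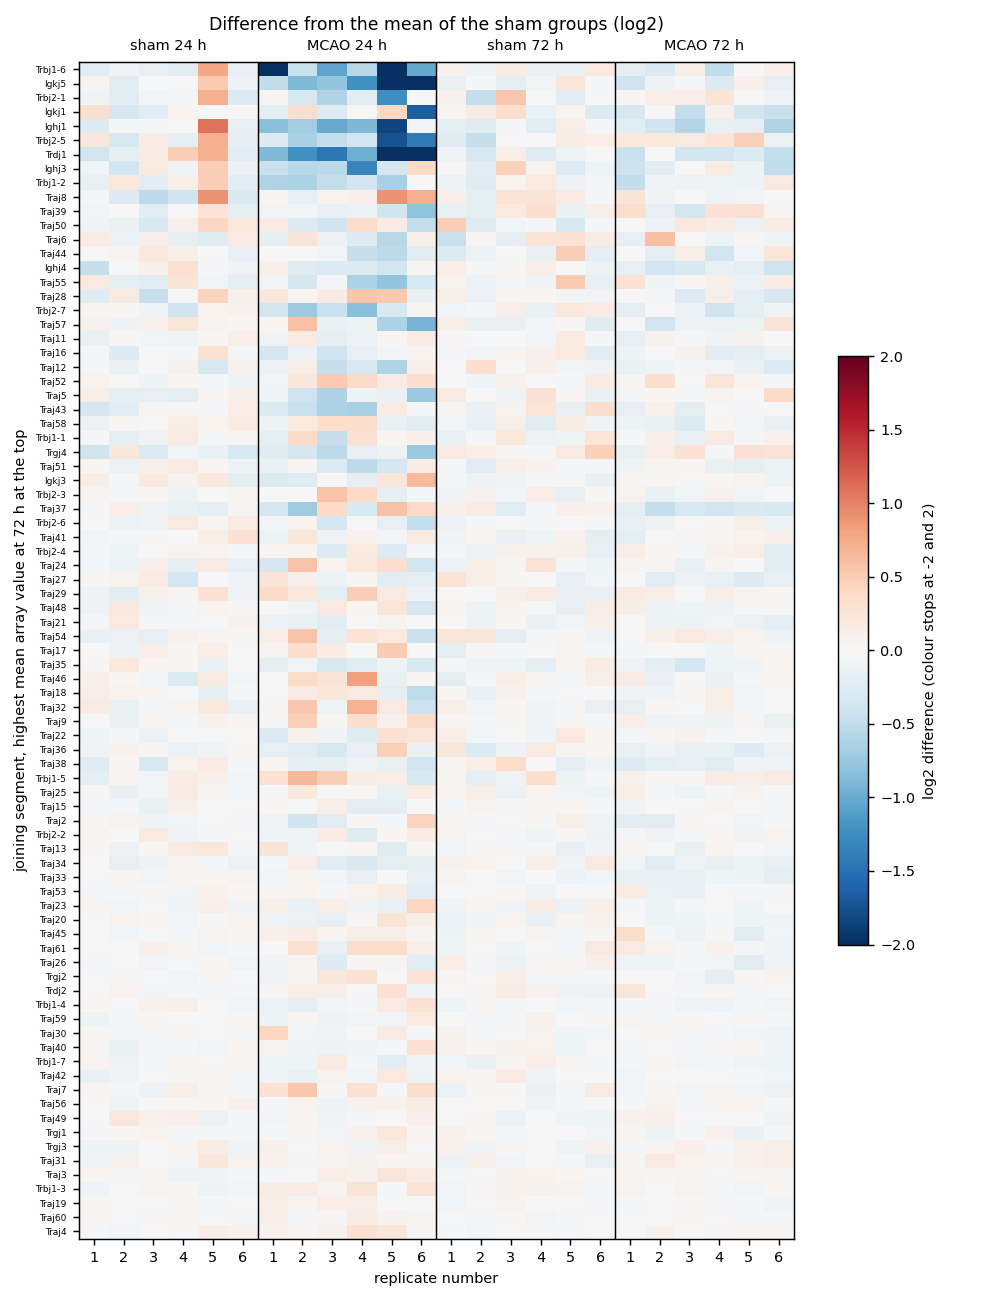
Difference of each of the 83 J segments (rows, highest mean value in the 72 h arrays at the top) from the mean of the sham groups, in log2 units, in each of the 24 arrays (columns, by group and replicate number). The largest changes in MCAO 24 h lie in the top rows, with replicate 5 lowest in 7 of the 9 segments above 5, and sham 24 h replicate 5 is higher in most of the same rows.

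Single arrays carried much of the variation. The mean of the 9 segments above 5, less their mean in the sham groups, ran from -1.70 to -0.56 in the MCAO 24 h arrays (median -0.70) and from -0.17 to 0.61 in sham 24 h (median -0.04). In sham 72 h it ran from -0.21 to 0.16 and in MCAO 72 h from -0.25 to -0.05. The lowest MCAO array was replicate 5 and the highest sham array was sham 24 h replicate 5. The MCAO 24 h group lay wholly below the others in this mean. For the 74 other segments the mean ran only from -0.05 to 0.05 over all 24 arrays. The SD over arrays was largest in MCAO 24 h for 71 of the 83 segments, as it was for 17623 of the 24011 genes. The median ratio of the MCAO to the sham SD was 1.99 at 24 h and 0.88 at 72 h. Over all genes these ratios were 1.70 and 0.91. In the MCAO 24 h arrays, a mean of 13.9% of the segments and 13.6% of all genes lay more than 0.5 from the sham mean. The part of these arrays in the 24 h differences was not tested beyond leaving them out.

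Lymphocyte genes were measured on the same arrays. Cd3e, a chain of the T cell receptor complex, had group means of 3.81 to 3.86, and Cd79a, a chain of the B cell receptor complex, 3.55 to 3.76. Neither passed the threshold at either time, and both were within the range of the silent receptor genes. The mean over 17 T cell markers ran from 3.90 to 4.02 in MCAO 24 h and from 3.95 to 4.03 in sham 24 h, so the ranges overlapped. Of these markers, 2 (11.8%, against 10.8% of all genes) were called lower at 24 h (Cd8b1, -0.35, and Cd6, -0.15). None was higher (against 11.1%), and none was called at 72 h, where 1 (5.88%, against 10.9%) had an unadjusted p under 0.05. The mean over 17 B cell markers ran from 4.02 to 4.11 in MCAO 24 h and from 4.09 to 4.17 in sham 24 h. Here Bank1, a B cell scaffold protein, was lower (-0.40) and Ms4a1 was higher (0.20), or 5.88% of the list in each direction. None was called at 72 h, where 3 (17.6%, against 10.9% of all genes) had an unadjusted p under 0.05. At 72 h the B cell marker mean of each MCAO array (4.00 to 4.07) lay below that of each sham array (4.11 to 4.24). This was not particular to B cell markers. The cardiomyocyte marker mean was apart in the same way at 72 h, with 12.40 to 12.55 in MCAO and 12.575 to 12.68 in sham. The share of lymphocytes in the J segment values was not tested.

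**Figure D4:**
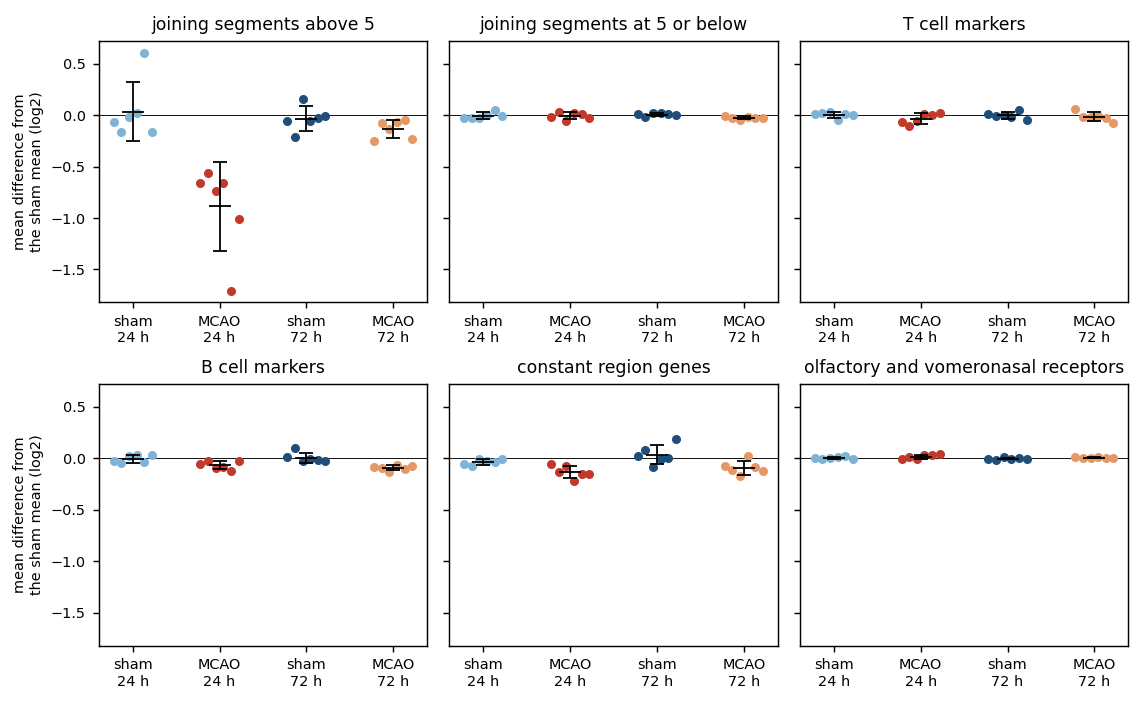
Mean difference from the sham mean (log2, vertical axis) per array for 6 gene lists, with 1 point per array, 6 arrays per group and bars for mean and SD. Only the panel of the 9 J segments above 5 falls below -0.50 in MCAO 24 h. The panels of the other segments, T cell markers, B cell markers, constant region genes and olfactory and vomeronasal receptors stay between -0.22 and 0.19. The first panel was picked by high value and holds the segments that led to the choice, while the gene lists were not split by value. Single constant region genes differed by -1.04 to 0.40 at 24 h.

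The recombinase genes Rag1 and Rag2, which lymphoid precursors need to rearrange J segments, had group means of 3.52 to 3.60 and 3.29 to 3.43. Neither passed the threshold at either time. Of the 13 measured genes of recombination and end joining, Prkdc (0.45) and Hmgb2 (0.37) were higher at 24 h and Poll (-0.48) was lower. These are 15.4% and 7.69% of the list. At 72 h none was called, and 1 (7.69%, against 10.9% of all genes) had an unadjusted p under 0.05. Prkdc, the DNA-dependent protein kinase, serves DNA repair in all cells, as does the polymerase Poll. Of 279 variable segments, 17 (6.09%, against 10.8% of all genes) were called lower and 20 (7.17%, against 11.1%) higher at 24 h. None was called at 72 h, where 4 (1.43%, against 10.9%) had an unadjusted p under 0.05.

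The constant region genes, to which J segments are spliced in receptor mRNA, were compared by locus. Trbc2, the constant region gene next to the second beta cluster, had 6.55 to 8.08 in sham 24 h (median 6.95) and 4.46 to 6.56 in MCAO 24 h (median 6.20), and the groups overlapped only at their edges. The difference was -1.04 (SE 0.26, limma adjusted p = 0.00707), and at 72 h it was -0.08 (SE 0.26). Trbj2-7, the segment nearest to it, differed by -0.40 at 24 h and -0.21 at 72 h. Trbc1, which follows the first beta cluster, differed by 0.23 (SE 0.19) at 24 h and 0.31 (SE 0.19) at 72 h, with neither past the threshold. Trbj1-6, in the cluster before it, differed by -1.53 at 24 h, and Trbj1-7, the segment nearest to Trbc1, by -0.05 (SE 0.06). Trbj1-7 had a mean of 3.11, near the lowest value of the arrays (2.78), which leaves little room for a lower value. Trac, the alpha constant region gene, differed by -0.08 (SE 0.18) at 24 h and -0.28 (SE 0.18) at 72 h.

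Igkc, the kappa constant region gene, had 4.92 to 5.85 in sham 24 h (median 5.36) and 4.34 to 5.16 in MCAO 24 h (median 4.91). The groups overlapped, and the difference was -0.53 (SE 0.17, limma adjusted p = 0.0326), against -1.82 for Igkj5 beside it. Without MCAO 24 h replicates 5 and 6 Igkj5 differed by -0.88. Ighm, the constant region gene of IgM, was the only one of 14 constant region genes called at 72 h. It had 5.71 to 6.53 in sham 72 h (median 6.07) and 4.78 to 5.80 in MCAO 72 h (median 5.29), a difference of -0.84 (SE 0.21, limma adjusted p = 0.0289). At 24 h Ighm differed by -0.57 (SE 0.21, limma adjusted p = 0.0524). Its J segments Ighj1, Ighj3 and Ighj4 differed at 72 h by -0.26, -0.17 and -0.29, with none past the threshold. Trgc1, of the gamma locus, was higher at 24 h (0.40, SE 0.14, limma adjusted p = 0.0419). The remaining constant region genes (Igha, Ighe, Ighg1, Ighg2b, Ighg2c, Ighg3, Trgc2 and Trgc4) did not pass the threshold at either time.

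**Figure D5:**
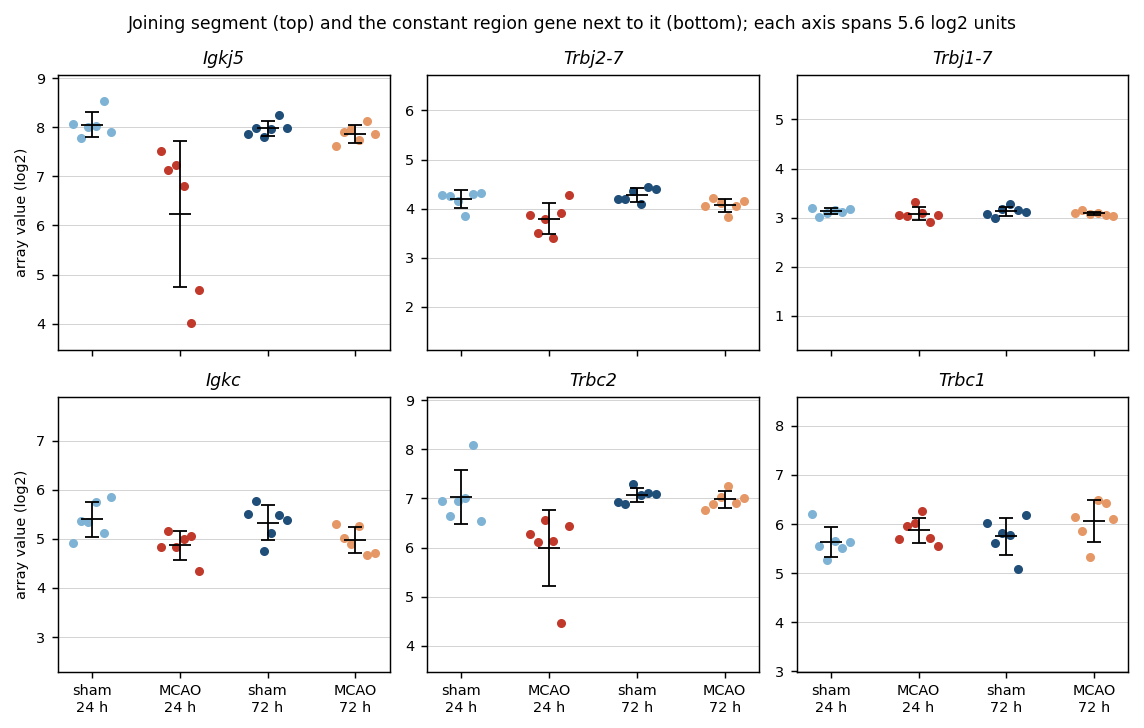
Log2 array value (vertical axis, the same span in every panel) of 3 J segments (top) and of the constant region gene nearest to each (bottom), with 1 point per array and bars for mean and SD over 6 arrays. In MCAO 24 h Igkj5 reads down to 4.01 and Igkc down to 4.34. They start from different levels in sham 24 h, and both were called lower. Trbc1 shows no fall, and Trbj1-7, with a mean of 3.11, lies near the lowest value of the arrays (2.78).

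Neighbouring segments were compared by array value. Within the beta locus, in the order of the RefSeq gene table (assembly GRCm38.p6, used for order alone), the median absolute difference between neighbours was 2.29 (log2, 13 pairs), against 0.98 over all 91 pairs. Trbj1-6, with a mean of 8.07 over the 24 arrays, lies between Trbj1-5 (3.36) and Trbj1-7 (3.11). Their 24 h differences were -1.53 for Trbj1-6, 0.23 for Trbj1-5 and -0.05 for Trbj1-7. In the same way Trbj2-5 (6.31, 24 h difference -0.89) lies between Trbj2-4 (3.57, -0.04) and Trbj2-6 (3.61, -0.20). Among the Traj segments the median difference between neighbours was 0.43 over 56 pairs, against 0.39 over all 1596 pairs. In the small loci it was 0.21 for Trgj (0.30 over all pairs), 1.20 for Ighj (1.40) and 3.59 for Igkj (3.40). Each segment has its own probes, so these gaps are between array values and not between amounts of RNA.

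Within groups the segments shared little from array to array. With each group's mean taken off, the median correlation over the 3403 pairs of segments was 0.02 over 24 arrays, and over the 36 pairs of segments above 5 it was 0.38, or 0.29 without MCAO 24 h replicates 5 and 6. The strongest of these 36 pairs over 24 arrays was Trbj2-5 with Igkj5, of different loci, with 0.84, or 0.70 without those arrays. The segments' median correlation was -0.01 with the mean of the T cell markers, -0.04 with that of the B cell markers and 0.14 with that of the olfactory and vomeronasal receptors. The genes outside the group whose values followed the segments' mean most closely within groups, over 24 arrays, were Dtd1 (0.90), 1700094J05Rik (0.90), Tcf7l2 (0.88), Hagh (0.86) and 2700081O15Rik (0.86). All these correlations are across arrays that share groups and scaling, and are descriptions.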

How the data were processed

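The values analysed are the log2 expression values the authors deposited in the series' value table (24973 identifiers, 24 arrays). No header or label states the log base, so log2 was read from the range, 2.78 to 13.49. The sorted values were identical in 23 of the 24 arrays, so the arrays were on 1 common scale, which fixes the mean over all genes. HOMER is named in the submitters' processing notes without version or role; how probes were summarized, and on which build, is not given in the sources used here. Groups follow the titles, since a description field of the later samples also says 24 h. Symbols came from GEO's platform annotation through the Entrez identifier: 24015 identifiers had 1 symbol and 958 had none. Where several identifiers shared a symbol (4 symbols), only the row with the largest mean over the arrays was used, leaving 24011 genes. All 83 segments matched the RefSeq table, which names 94.

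A limma 3.58.1 fit (R 4.3.3) of 4 group means over all 24 arrays gave the contrasts. They were moderated, two-sided and Benjamini-Hochberg adjusted over all genes at 0.05. The fit was tried on simulated data with 1 spread per gene for all groups. For the 72 h contrast it recovered 75% of changes of 0.5 and 92% of changes of 1, and 5.65% of its calls were false. The simulation does not cover the wider spread of MCAO 24 h in the real arrays. Figures were drawn with matplotlib 3.10.9. The 24 h contrast and the difference between times chose the group, and the members, the marker lists and the limit of 5 were chosen with earlier results of these data known. Text names the highest and lowest segment of each locus, all segments of small loci, the 5 highest and lowest differences per contrast, each constant region gene, and, from the marker lists, genes called at 24 h; those of plasma cells, NK cells, blood cells and lymphoid stroma are in the closing section. Other segments are named beside a count of which they are part. Alternatives were robust eBayes, quantile normalization, centring, a filter on dim genes, array weights, 1 row per identifier, the replicate block, only the arrays compared, a receptor-gene component as covariate, and leaving out arrays. Pairs of arrays with the same number, less group means, correlated from -0.05 to 0.01 at 24 h and from -0.07 to 0.14 at 72 h, so the numbers were not used as pairs.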

Additional observations from a re-analysis of the deposited data

Results flagged for a closer look

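Several segments had 1 array far from the other 5 of its group, by a gap test (Dixon's, at 95%). Sham 24 h replicate 5 was far above its group for Ighj1 (8.22), Traj8 (5.79), Trbj1-6 (9.26) and Trbj2-1 (7.98), and also for the mean of all segments against the sham mean (0.11). Igkj1 was far below its group in MCAO 24 h replicate 6 (5.61). Traj8 (5.15) and Trdj2 (3.35) were far above theirs in MCAO 72 h replicate 1. Of 124 groups tested 8 were far out, and chance gives about 1 in 20, or 6.2. The MCAO effect at 72 h was more positive than that at 24 h for Trdj1 (1.30, SE 0.27) and Trbj2-5 (1.17, SE 0.30), by the contrast of the effects in limma. That contrast contains the 24 h values that chose the group, so it is a description.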

How the results depend on the processing

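At 24 h, 8 segments were lower. The count was 4 with only the groups compared, 13 without both MCAO 24 h arrays 5 and 6, and 0 with the receptor component as covariate; leaving out 1 array at a time gave 8 to 10. With the covariate Igkj5 differed by 0.69 (SE 0.41) and Trbj2-5 by 0.33 (SE 0.24), both turned in sign; the cause was not tested. At 72 h, 0 segments were called; array weights gave 5 and only the groups compared gave 3, and leaving out 1 array gave 0 in every case. Sham 72 h against 24 h gave 0 under all settings. For the difference between times the count of 2 became 1 with array weights, 1 with the replicate block, 4 without MCAO 24 h arrays 5 and 6 and sham 24 h array 5 (chosen after seeing the data) and 0 with the covariate; leaving out 1 array gave 1 to 3. Among genes above the median level, the segments' median difference was -0.32 at 24 h (main -0.01) and -0.089 at 72 h (main -0.02), and the mean over MCAO 24 h arrays of the segments' per-array mean was -0.51 (main -0.10), or -0.024 with the median in place of the mean; fewer segments enter the first of these. With 1 array left out, the medians ran from -0.03 to 0.00 and from -0.03 to -0.02, and the per-array mean from -0.12 to -0.09. The replicate block left 8 segments lower at 24 h and 0 at 72 h; 1 of 12 same-numbered pairs correlated above 0.1. Leaving out 1 array ended the 24 h call of Traj3 (15 of 24 arrays), Traj9 (7), Traj7 (6) and Traj35 (1), and brought past the threshold Traj8 (0.57 without sham 24 h replicate 5) and Trbj1-5 (0.34 without MCAO 24 h replicate 6).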

Other observations

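The lists of other blood and lymphoid cells gave these values, each from the fit across all genes, which called 10.8% of all genes lower and 11.1% higher at 24 h. Of 11 NK cell markers, Nkg7 was lower at 24 h (-0.21) and none was called at 72 h. Of 11 plasma cell markers, Fkbp11, a folding enzyme of secretory cells, was higher at 24 h (0.51), as was Tnfrsf17 (0.18), the plasma cell receptor BCMA. Of 8 measured blood cell and platelet markers, Hbb-bs was higher (0.41) and Slc4a1 lower (-0.22). Of 7 markers of lymphoid stroma and thymus, Aire was lower (-0.55). None of these lists had a call at 72 h (limma). An unadjusted p under 0.05 was found there for 1 NK (9.09%), 1 plasma cell (9.09%), 2 blood cell (25%) and 0 stroma markers. Of all genes, 10.9% had one. The diversity segment Ighd6-2 was higher at 24 h, with 3.50 ± 0.08 in sham 24 h and 3.97 ± 0.41 in MCAO 24 h (SD, n = 6).

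Genes with short transcripts from elsewhere in the genome gave these counts at 24 h. Of 98 small nucleolar RNAs, 26 were higher (26.5%, against 11.1% of all genes) and 0 lower (against 10.8%), with a median difference of 0.29. Of 544 microRNAs, 96 were higher (17.6%) and 47 lower (8.64%), with a median of 0.05.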
